A study of Mus musculus with 8 samples.

Results

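Expression is described here for 9 components and regulators of the complement system: C4b, C4a, C2, C3, Cfb, Cfd, C1ra, Serping1 and C7. They were found by gene symbol among the 24419 rows of the deposited table of read counts, and all 9 were present. All 9 also passed the filter on low counts, which left 13646 genes for testing. C4a and Cfd were the least abundant, with 316 and 200 reads over the 8 libraries. The choice of these genes was made with results of the same comparisons known. Their changes, and whether each passed the threshold over all genes, are therefore given as a description, without p-values. A pass by one of the 9 is no independent evidence, since the same values led to its choice.

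The RNA came from fibroadipogenic progenitors, the mesenchymal cells that lie between muscle fibres. Hindlimb muscle came from males of the C57BL/6J strain. Events positive for Hoechst and SCA-1 that lacked CD45, CD31, α7-integrin and propidium iodide were sorted. The sham group (labelled Control, n = 2) had sham surgery. The scrambled group (KPC Scr, n = 3) received 2000000 KPCY cells in 50 µL into the pancreas. KPCY is a mouse pancreatic tumour line, and these cells had been stably transduced with a lentiviral vector carrying a scrambled sequence. The knockdown group (miR-27a-KD, n = 3) received KPCY cells transduced with a lentiviral inhibitor of miR-27a-3p. Both transduced lines had been kept in puromycin at 2 µg/mL for 7 days. The inhibitor was thus in the implanted cells and not in the sorted progenitors, and 1 transduced line stands for each implanted group. Ages, collection times and whether a line is a clone are not given in the labels.

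Complement is a cascade of proteins that marks surfaces for uptake and can end in a pore in the target membrane. In the classical pathway C1r activates C1s, which cleaves C4 and C2 to build an enzyme that splits C3. In the alternative pathway factor D cleaves factor B for the same purpose, and C7 belongs to the terminal pore. The C1 inhibitor, encoded by Serping1, blocks C1r and C1s. The liver supplies most complement of the plasma, and fibroblasts and other mesenchymal cells also make C3, C4, factor B, C1r, C1s and C1 inhibitor.

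The microRNA inhibited in the implanted cells is shown with its seed, bases 2 to 8, in capitals, since it defines the knockdown group. It lies at chr8:84208727-84208747 on the plus strand (RefSeq, GRCm38.p6).
mmu-miR-27a-3p: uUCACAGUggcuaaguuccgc
The complement of this seed, ACTGTGA, was searched on the transcript strand of annotated 3′ UTRs (GENCODE M21, the coding transcript with the longest coding sequence). It was found in none of the 8 members with an annotated 3′ UTR, which ran from 43 bases in C3 and Cfb to 463 bases in C1ra. Among 12673 tested genes 14.8% held it, with a median 3′ UTR of 884 bases.

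The 8 libraries held between 15647436 and 28340450 counts. The scrambled libraries were not alike. On the first principal component of log2 CPM, which held 61.1% of the variance, scrambled libraries 1 and 3 stood at 115 and 92.0, scrambled library 2 at -12.3 and the sham and knockdown libraries between -47.7 and -32.3. Of 12 progenitor markers, 9 had a negative log2 change from sham to scrambled libraries, while 50.1% of all genes had a positive one. In every scrambled library 6 lay below sham (20.8% of all genes). The median change of the 12 was -0.94, against 0.00 over all genes, and edgeR called none (1.58% of all genes). By edgeR 5 had an unadjusted p under 0.05, against 3990 of all 13646 genes. Cd34 stood at 213, 1179 and 241 normalised CPM (the reads of a gene relative to the TMM-scaled library total) in scrambled libraries 1, 2 and 3, against 1805 to 2250.3 CPM in the other 5. Thy1 stood at 20.3, 138 and 6.86 CPM against 303 to 660 CPM. Pdgfra, a receptor used to define these progenitors, was at 1256 to 1588 CPM in all 8 libraries, and Dcn, a matrix proteoglycan, was higher in every scrambled library (19625 to 24983 CPM) than in the other 5 (11101 to 16204 CPM). The sort marker SCA-1 is the product of Ly6a. Ly6a was at 451 and 436 CPM in scrambled libraries 1 and 3, and at 1136 CPM in scrambled library 2. Sham libraries had 951 and 933 CPM of it and knockdown libraries 1110, 1175 and 1033 CPM. The 12 markers of macrophages summed to between 19.7 and 57.3 CPM over all libraries, and 8 lymphocyte markers to at most 0.569 CPM. The 10 markers of muscle fibres summed to 32.5 and 72.3 CPM in sham, 85.8 to 323 in scrambled and 50.4 to 64.5 in knockdown libraries, and the 7 of neutrophils to at most 3.54, 18.1 and 3.29 CPM. Their part in the levels below was not tested. In bulk RNA, fewer cells of a type and less RNA per cell cannot be told apart.

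C4b was high in every scrambled library, intermediate in every knockdown library and low in both sham libraries. From sham to scrambled libraries C2 was called higher too, where called means an adjusted p under 0.05 over all 13646 genes (edgeR quasi-likelihood test, Benjamini-Hochberg). C1ra, Serping1, C7, C3 and Cfb had positive changes against sham in both implanted groups, none of them called. The plot of the level in each library shows the 9 genes side by side.

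**Figure D1:**
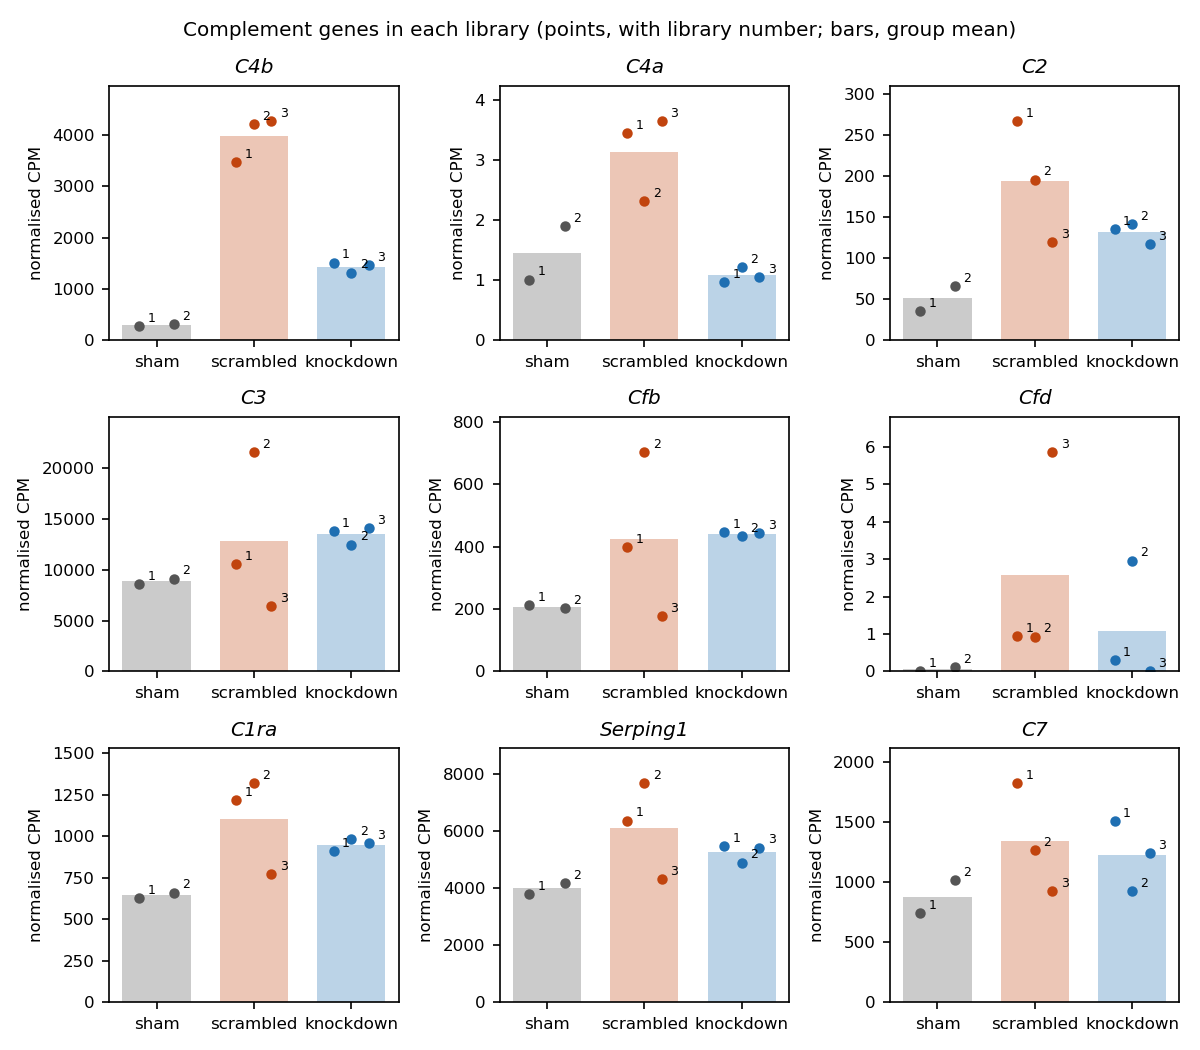
Normalised CPM of the 9 complement genes in each library. Points are libraries with their number, bars are group means (sham n = 2, scrambled n = 3, knockdown n = 3), and each vertical axis starts at 0 with its own scale. C4b runs from 279.9 to 324.2 CPM in sham, 3477 to 4267 in scrambled and 1320 to 1514 in knockdown libraries without overlap, while C3 and Cfb in scrambled library 3 lie below both sham libraries.

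C4b encodes complement C4, the protein whose larger fragment binds covalently to surfaces and anchors the classical C3 convertase. It stood at 279.9 and 324.2 CPM in sham libraries 1 and 2, at 3477, 4208 and 4267 CPM in scrambled libraries 1, 2 and 3, and at 1514, 1320 and 1466 CPM in knockdown libraries 1, 2 and 3. The 3 groups did not overlap, and within a group the highest library was at most 1.23 times the lowest. Its reads made up 0.0283% to 0.0334% of all counts in sham, 0.313% to 0.419% in scrambled and 0.136% to 0.156% in knockdown libraries. The group means were 302 ± 31.3 CPM (SD, n = 2), 3984 ± 440 CPM (n = 3) and 1433 ± 101 CPM (n = 3).

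The fitted log2 change of C4b was 3.72 ± 0.24 (standard error) from sham to scrambled libraries, 13.2-fold. From scrambled to knockdown libraries it was -1.47 ± 0.19, which is 2.78-fold lower. Knockdown libraries remained above sham by 2.25 ± 0.22, 4.74-fold. These values passed the threshold in all 3 comparisons, which share libraries: the scrambled group stands in the first and the second, and sham in the first and the third.

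Leaving out each library in turn gave log2 changes from 3.62 to 3.82, from -1.57 to -1.42 and from 2.14 to 2.35 for the 3 comparisons. The call against sham for scrambled libraries was kept in 7 of 8 such fits and lost without sham library 1. The other 2 calls were each kept in 1 of 8 fits, that without scrambled library 2, in which 54.0% (scrambled to knockdown) and 0.236% (sham to knockdown) of all genes were called.

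C4a is the neighbouring near copy of C4b, and its annotation carries no coding transcript (processed transcript in GENCODE M21). Its reads were few beside those of C4b, with 16 and 34 reads in sham, 88, 55 and 58 in scrambled and 19, 22 and 24 in knockdown libraries. In normalised CPM these were 1.01 and 1.90, then 3.45, 2.32 and 3.65, then 0.975, 1.23 and 1.05. The scrambled libraries lay above all others, and the sham and knockdown libraries overlapped. The log2 changes were 1.08 ± 0.45 from sham to scrambled, -1.52 ± 0.41 from scrambled to knockdown and -0.45 ± 0.52 from sham to knockdown libraries, none called.

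How far reads of C4a and C4b can be told apart depends on their sequence. The 5214 coding bases of C4b aligned with the C4a transcript over 5204 bases with 201 mismatches, an identity of 96.1%. Of the windows of 59 bases in the longest coding transcript of C4b, the length of a read, 30.2% also occurred in C4a. The stretch below is the 59-base window of the alignment with the most differences, coding bases 2706 to 2764 of C4b (GENCODE M21 transcripts, GRCm38). The 13 differing bases are in capitals, and a read over this stretch separates the genes.
C4b: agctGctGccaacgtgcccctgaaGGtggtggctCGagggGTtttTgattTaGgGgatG
C4a: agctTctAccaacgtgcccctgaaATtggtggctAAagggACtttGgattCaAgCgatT
C4a took between 0.0552% and 0.582% of the reads of the pair in any library. With the counts of both genes added, the log2 changes were 3.72, -1.47 and 2.24 in the order above, all called, as for C4b alone.

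C2 encodes the serine protease of the classical C3 convertase, the partner of C4. It stood at 36.1 and 66.2 CPM in sham, 267, 196 and 120 in scrambled and 136, 141 and 118 in knockdown libraries. Both implanted groups lay above sham, and they overlapped each other. The log2 change from sham to scrambled libraries was 1.93 ± 0.37, 3.80-fold, and was called. That call was kept in 2 of 8 fits that left out a library, those without scrambled library 2 or 3, with log2 changes from 1.55 to 2.42 over all 8. In those 2 fits 51.0% and 0.362% of all genes were called in that comparison. The change was -0.56 ± 0.31 from scrambled to knockdown and 1.36 ± 0.36 from sham to knockdown libraries, neither called.

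C3 encodes the central component on which all pathways converge, and it was among the most abundant transcripts of these cells. It stood at 8575 and 9128 CPM in sham, 10571, 21546 and 6420 in scrambled and 13799, 12464 and 14090 in knockdown libraries. Scrambled library 2 was the highest of all 8 and scrambled library 3 the lowest, so the scrambled group spanned both others, while all 3 knockdown libraries lay above sham. The log2 changes were 0.54 ± 0.44 from sham to scrambled, 0.07 ± 0.39 from scrambled to knockdown and 0.60 ± 0.44 from sham to knockdown libraries, none called. The sign of the first turned without scrambled library 2 (-0.052), and that of the second without scrambled library 1 (-0.06) or 3 (-0.26).

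Per kilobase of exon, which allows genes to be compared, mean C3 stood at 1721 CPM per kb in sham, 2498 in scrambled and 2615 in knockdown libraries. It ranked 7, 8 and 2 among 13143 genes with a length in these groups. C4b stood at 53.0, 700 and 252 CPM per kb and ranked 664, 44 and 137. The level of C4b relative to C3, both per kilobase, was 0.0295 and 0.0321 in sham, 0.297, 0.176 and 0.600 in scrambled and 0.0991, 0.0956 and 0.0940 in knockdown libraries. This ratio does not depend on how libraries are scaled, and its 3 groups did not overlap.

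Cfb encodes factor B, the protease of the alternative convertase and the counterpart of C2. It stood at 212 and 202 CPM in sham, 398, 703 and 177 in scrambled and 446, 434 and 442 in knockdown libraries. As with C3, scrambled library 2 was the highest and scrambled library 3 the lowest of all 8, and the knockdown libraries were alike and above sham. The log2 changes were 1.04 ± 0.45, 0.05 ± 0.39 and 1.09 ± 0.45 in the same order, none called. The second changed sign without scrambled library 1 (-0.0018) or 3 (-0.32). Both C3 and Cfb were lowest in scrambled library 3, where Ly6a was also low (436 CPM). In scrambled library 1 Ly6a was low as well (451 CPM), yet C3 (10571 CPM) and Cfb (398 CPM) lay above both sham libraries. The part of such differences between libraries in the levels of C3 and Cfb was not tested.

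The promoter of C3 is printed because C3 is the most abundant member with an entry in the RefSeq promoter table, which matched 4 of the 9 genes. The 250 bases before its annotated start, chr17:57228137-57228386 on the minus strand (GRCm38.p6), are given in the direction of transcription. Capitals mark matches, on either strand, to TTGCNNAA (the C/EBP motif) at 45 bases and to an NF-kB motif (GGGA, any 4 bases, CC) at 197, 33 and 10 bases before the start, counted to the first base of each match.
C3 promoter: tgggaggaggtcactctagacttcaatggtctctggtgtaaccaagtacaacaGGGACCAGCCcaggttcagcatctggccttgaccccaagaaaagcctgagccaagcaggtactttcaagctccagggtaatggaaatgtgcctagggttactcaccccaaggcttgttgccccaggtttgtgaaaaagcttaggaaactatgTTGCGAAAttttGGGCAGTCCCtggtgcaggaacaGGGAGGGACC
Among 32851 promoters of the same length, 9.56% held the C/EBP motif and 17.6% the NF-kB motif. The promoter of C7 held 1 match to TTCNNNGAA, a STAT motif present in 7.02% of promoters, and none to the other motifs searched. Those were the interferon-stimulated response element (GAAA, any 2 bases, GAAA, 2.98%), CACGTG (E-box, 6.02%) and ACANNNTGT (glucocorticoid response element, 5.84%). C3 held none of these 3 and no STAT motif. C1ra and Cfd held none of the 6 motifs. The C1ra window ended at a RefSeq start 216 bases past its GENCODE start, so it overlapped the annotated UTR of C1ra. A match describes the letters of its window only.

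Cfd encodes factor D, also called adipsin, a protease made mainly by fat cells. Reads were 0 and 2 in sham, 24, 22 and 93 in scrambled and 6, 53 and 0 in knockdown libraries. By counting error, a library listed at 0 could hold up to 3 reads. In normalised CPM the range was 0 to 0.112 in sham, 0.930 to 5.86 in scrambled and 0 to 2.96 in knockdown libraries. The scrambled libraries lay above sham, and knockdown libraries overlapped both groups. No fold change with all 8 libraries is given at these counts. Cfd still enters the counts of changes above 0 and the medians below. Its fitted values in the last section are limited by depth and are not read as sizes. The 8 markers of mature adipocytes summed to 1.96 and 5.19 CPM in sham, 22.2 to 55.9 in scrambled and 4.003 to 7.48 in knockdown libraries. Of these, Plin4, a lipid droplet protein, was picked after its values were seen. Its log2 change from sham to scrambled libraries was 3.59, given as a description. Adipoq was at most 0.882 CPM and Lep at 0 in every library. Their part in the level of Cfd was not tested.

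C1ra encodes the protease C1r, which acts first in the classical pathway. It stood at 627 and 661 CPM in sham, 1218, 1321 and 774 in scrambled and 910, 983 and 958 in knockdown libraries. All implanted libraries lay above sham, and the knockdown libraries fell inside the scrambled range. The log2 changes were 0.78 ± 0.25 from sham to scrambled, -0.22 ± 0.22 from scrambled to knockdown and 0.56 ± 0.25 from sham to knockdown libraries, none called. Of the 59-base windows of C1ra, 47.5% occurred in other annotated genes, among them its paralog C1rb, so its level is uncertain by that sharing.

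Serping1, the inhibitor of C1r and C1s, had a level per kilobase close to that of C3. It stood at 3805 and 4199 CPM in sham, 6380, 7696 and 4333 in scrambled and 5474, 4906 and 5431 in knockdown libraries, which put every implanted library above both sham libraries. The log2 changes were 0.62 ± 0.28, -0.22 ± 0.24 and 0.40 ± 0.27 in the same order, none called. Per kilobase its means were 1721, 2639 and 2267 CPM per kb in sham, scrambled and knockdown libraries, and its ranks 6, 7 and 4.

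C7 binds the nascent terminal complex and inserts it into the membrane. It stood at 745 and 1016 CPM in sham, 1825, 1268 and 926 in scrambled and 1508, 929 and 1244 in knockdown libraries. All 3 groups overlapped, and the log2 changes were 0.61 ± 0.33, -0.13 ± 0.29 and 0.48 ± 0.33 in the same order, none called. It was the only gene of the terminal pathway among the 6 listed that passed the filter on low counts.

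Counted together, 2 of the 9 genes were called higher and 0 lower from sham to scrambled libraries (edgeR). Over all 13646 genes 1.1% were called higher and 0.476% lower, 1.58% either way. In 6 of 9 the scrambled libraries all lay above sham and in 0 of 9 below it (20.2% and 20.8% of all genes). All 9 changes were above 0 (50.1% of all genes). The median log2 change was 1.04, against 0.00 over all genes. From scrambled to knockdown libraries 1 of 9 was called lower and 0 higher, against 0.044% and 0.00733% of all genes (0.0513% either way). Of the 9 changes 2 were above 0, those of C3 and Cfb (50.8% of all genes). The groups lay apart and lower in 2 of 9 (16.7% of all genes), and the median was -0.22, against 0.01. From sham to knockdown libraries 1 of 9 was called higher, against 0.00733%, and 8 of 9 changes were above 0, against 49.8%. The groups lay apart and higher in 6 of 9 (13.8% of all genes), with a median of 0.60 against 0.00. Since the genes were chosen with these comparisons known, nothing is read from the counts against the background.

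**Figure D2:**
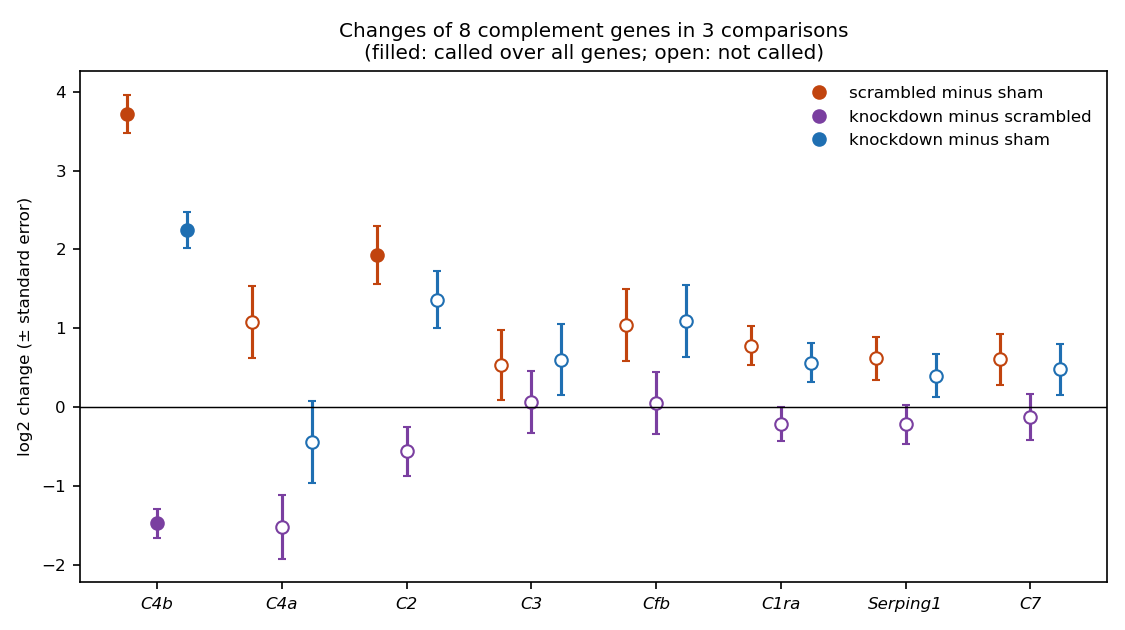
Log2 change with its standard error (vertical axis) for 8 of the genes in 3 comparisons, sham n = 2, scrambled n = 3 and knockdown n = 3. Cfd is left out because its counts give no usable fold. Filled points are called over all genes: C4b in all 3 comparisons (3.72, -1.47 and 2.25) and C2 from sham to scrambled libraries (1.93).

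Within the scrambled group the 9 genes did not follow a common order. Scrambled library 3 was the lowest of the 3 for 6 genes, C2, C3, Cfb, C1ra, Serping1 and C7, and the highest for the other 3, C4b, C4a and Cfd. The highest scrambled library was 3.97 times the lowest for Cfb, 3.36 times for C3, 2.23 times for C2 and 1.23 times for C4b. In the knockdown group the same ratios were 1.03 for Cfb, 1.13 for C3, 1.20 for C2 and 1.15 for C4b. Without both scrambled libraries 1 and 3, an alternative chosen after the data were seen, the single remaining scrambled library is assumed to vary like the other groups. In that fit the log2 changes from sham to scrambled libraries included C4b (3.80), C2 (1.94), Cfb (1.77), C3 (1.29), C1ra (1.04) and Serping1 (0.95). Scrambled library 2, the one that remained, was the highest of the 3 for 4 of the 9 genes. Nothing is read from these sizes. Without scrambled library 2 the log2 change of C3 from scrambled to knockdown libraries was 0.66. It was called higher in that fit, as were 27.3% of all genes, so nothing is read from the call.

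4 of the 9 genes lie together in the class III region of the major histocompatibility complex on chromosome 17 (GENCODE M21, GRCm38, minus strand for each). C4b spans 34728380 to 34743882, C4a 34809092 to 34823464, Cfb 34856374 to 34862518 and C2 34862604 to 34898265. C3 is on the same chromosome at 57203970 to 57228136 on the minus strand. The others lie apart, Cfd on chromosome 10 at 79890853 to 79892655 (plus strand), C1ra on chromosome 6 at 124512405 to 124523443 (plus), Serping1 on chromosome 2 at 84765387 to 84775444 (minus) and C7 on chromosome 15 at 4988762 to 5063740 (minus). Exons of C2 and Cfb overlap the annotated gene Gm20547 on the same strand, which is no row of the table. Of their 59-base windows, 57.1% and 81.7% occur in Gm20547, so how reads were assigned there bears on both levels.

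The genes between and beside these 4 are described for comparison with C4b. Of the 26 class III neighbours listed in the counts, 24 were tested by edgeR and limma-voom. In each comparison edgeR and limma-voom called 0. By edgeR 5, 9 and 2 had an unadjusted p under 0.05, against 3990, 4427 and 323 of all 13646 genes. DESeq2 called 2 higher and 1 lower of 25 from sham to scrambled libraries, where it called 14.3% of all genes. It called 1 higher and 6 lower of 25 from scrambled to knockdown libraries (15.9% of all genes) and 0 of 22 from sham to knockdown libraries (0.209%). Their median log2 changes were -0.29, -0.23 and -0.19, against 0.00, 0.01 and 0.00 over all genes. Tnxb, a matrix protein gene next to C4b, stood at 5487 and 5024 CPM in sham, 2858, 5302 and 3228 in scrambled and 4428, 4338 and 4760 in knockdown libraries. Its log2 changes were -0.47 ± 0.29 from sham to scrambled and 0.25 ± 0.26 from scrambled to knockdown libraries. Stk19, beside C4a, stood at 13.3 and 16.1 CPM in sham, 31.4, 16.7 and 19.3 in scrambled and 11.3, 11.5 and 11.5 in knockdown libraries, with log2 changes of 0.61 ± 0.29 and -0.98 ± 0.26. Nelfe, next to Cfb, had changes of -0.56 ± 0.37 and 0.33 ± 0.33. Ehmt2, next to C2, had changes of 0.41 ± 0.17 and -0.56 ± 0.15. Dxo (-0.11 ± 0.21 and 0.16 ± 0.19), Skiv2l (0.61 ± 0.25 and -0.76 ± 0.22) and Cyp21a1 (-0.66 ± 0.99 and -0.18 ± 0.96) lie among them. None of these 7 was called by edgeR (adjusted p from 0.0733 to 1).

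**Figure D3:**
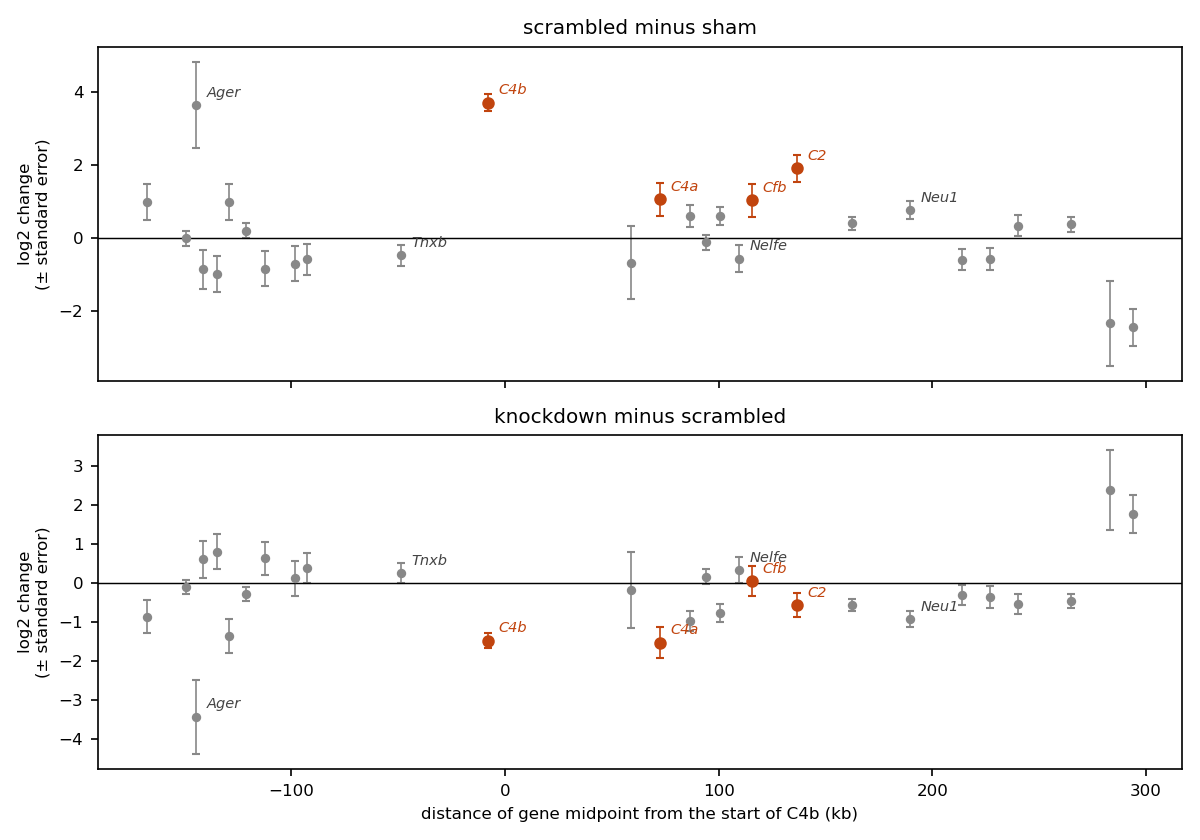
Log2 change with its standard error (vertical axis) against the distance of each gene's midpoint from the start of C4b in kb (horizontal axis), for scrambled minus sham (n = 3 and 2) and knockdown minus scrambled (n = 3 and 3). Orange points are C4b, C4a, Cfb and C2, and grey points are the 24 tested neighbours, of which edgeR called none. C4b stands at 3.72 and -1.47, and its neighbour Tnxb at -0.47 and 0.25.

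The other genes of the pathway were taken from 9 lists by role with 54 further genes, of which 27 were tested. These lists were made with earlier results of these data known, so p-values of their genes are no independent evidence. From sham to scrambled libraries 2 of the 27 were called higher, 0 lower and 25 not called (1.1% higher and 0.476% lower over all genes). The median log2 change was 0.67, against 0.00 over all genes. From scrambled to knockdown and from sham to knockdown libraries edgeR called 0 (0.0513% and 0.00733% of all genes). By edgeR 9 and 5 had an unadjusted p under 0.05, against 4427 and 323 of all 13646 genes. In both comparisons limma-voom called 0, and DESeq2 called 5 and 1, against 15.9% and 0.209% of all genes.

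Masp1, a protease of the lectin pathway, was among the genes called from sham to scrambled libraries. It stood at 0.506 and 1.73 CPM in sham, 10.4, 9.09 and 12.7 in scrambled and 3.34, 2.34 and 2.27 in knockdown libraries. The 3 groups did not overlap. It rose by 3.21 ± 0.47 on the log2 scale, 9.27-fold, from sham to scrambled libraries (edgeR, adjusted p = 0.0236, and at most 0.247 in the alternatives tried). That call was kept in 2 of 8 fits that left out a library, those without scrambled library 1 or 2, in which 0.498% and 51.0% of all genes were called. From scrambled to knockdown libraries its change was -2.01 ± 0.35 and missed the threshold (edgeR, adjusted p = 0.0610).

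The genes that follow had small p and were not called. Cd55, the membrane regulator that speeds the decay of convertases, stood at 354 and 290 CPM in sham, 24.4, 160 and 24.4 in scrambled and 263, 238 and 270 in knockdown libraries. Here every scrambled library lay below all others, and libraries 1 and 3 far below library 2. Its log2 changes were -2.21 ± 0.70 and 1.88 ± 0.65 (edgeR, adjusted p = 0.102 and 0.100). Ptx3, a pentraxin that can bind C1q, stood at 33.6 and 29.0 CPM in sham, 165, 218 and 41.2 in scrambled and 121, 147 and 106 in knockdown libraries. Its log2 changes were 2.18 ± 0.58 from sham to scrambled, -0.19 ± 0.47 from scrambled to knockdown and 1.99 ± 0.57 from sham to knockdown libraries (edgeR, adjusted p = 0.0776, 0.789 and 1). Csmd1, a membrane protein that inhibits complement, had fitted values of 2.34 ± 0.60, -0.61 ± 0.44 and 1.73 ± 0.61, not called. C1qbp, which binds C1q and acts in mitochondria, had values of 0.89 ± 0.34, -0.96 ± 0.30 and -0.07 ± 0.33, not called.

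By role, none of the 7 tested genes at the start of the classical pathway was called by edgeR, from sham to scrambled or from scrambled to knockdown libraries. C1s1, the substrate of C1r, had log2 changes of 0.27 ± 0.31 and 0.16 ± 0.28. The 3 chains of C1q (C1qa, C1qb and C1qc), which also mark macrophages, were each at most 2.46 CPM in a group mean. Of 5 tested lectin pathway genes Masp1 was called, and of 5 membrane regulators and 5 receptors none, from sham to scrambled libraries. Over all genes edgeR called 1.58% in that comparison and 0.0513% from scrambled to knockdown libraries. Nothing is read from these counts by role. The heat map of tested genes by role shows these profiles.

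**Figure D4:**
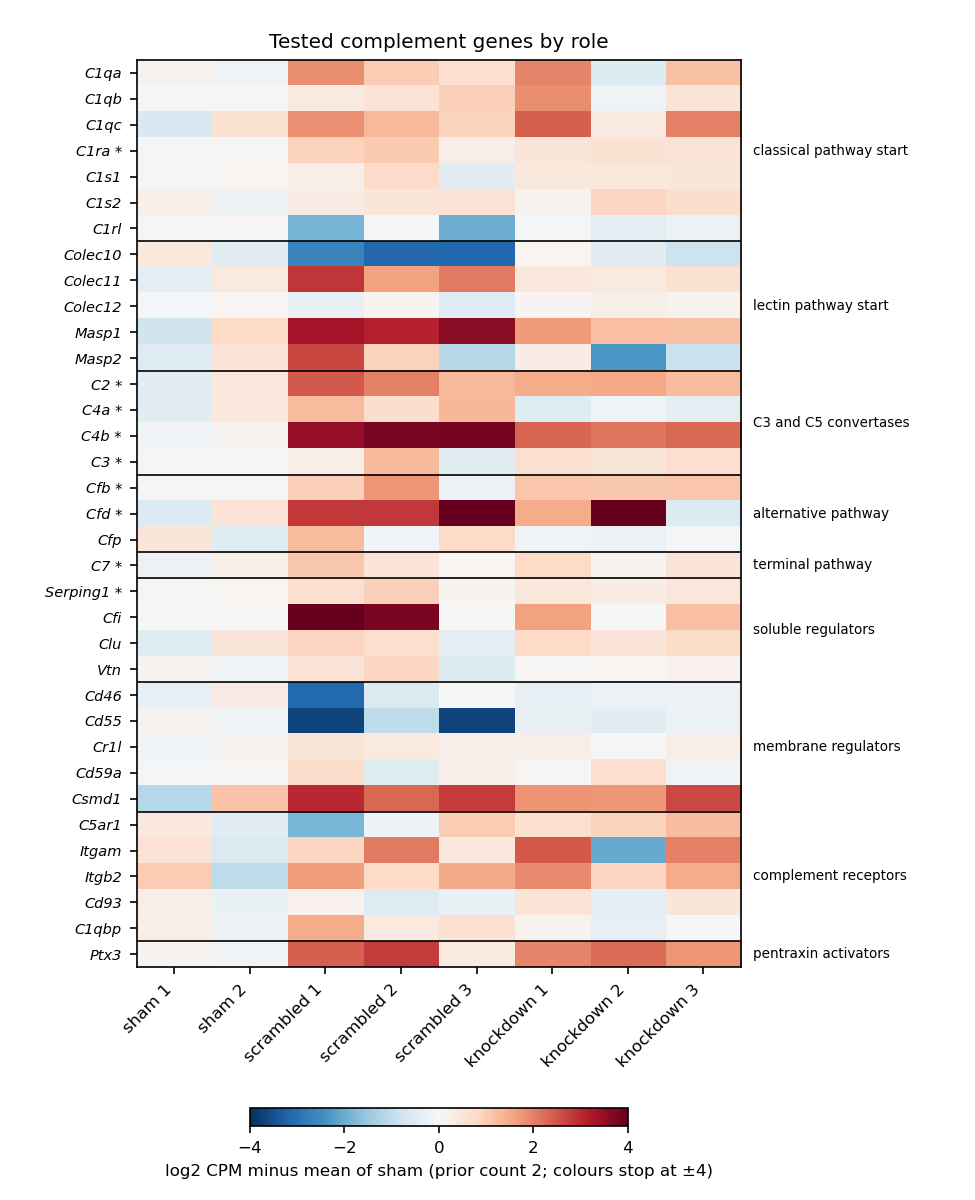
Log2 CPM of 35 tested complement genes (rows, grouped by role, members marked with an asterisk) in each library (columns: 2 sham, 3 scrambled, 3 knockdown) minus its mean in sham, with a prior count of 2 and colours that stop at ±4. C4b and Masp1 are dark red in all 3 scrambled libraries, and Cd55 is dark blue in scrambled libraries 1 and 3.

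The 27 complement genes under the count filter differed in 1 library. Together they had 752 reads in scrambled library 1 and 12 to 63 in each of the other 7. In scrambled library 1, 13 of them had at least 20 reads, with at most 10 in any other library. They include genes that the liver makes. Among these are Hc (which encodes C5, 140 reads), C8a (78 reads) and C9 (73 reads), and the soluble regulator C4bp (82 reads). The 6 hepatocyte markers, Alb among them, summed to 599 CPM in that library and to at most 0.338 CPM in the others. C4b stood at 3477 CPM in that library and at 4208 and 4267 CPM in scrambled libraries 2 and 3. C2 was highest in that library, at 267 CPM against 196 and 120 CPM. Without scrambled library 1 the change of C4b from sham to scrambled libraries was 3.81 and still called, while C2 lost its call. In that fit 0.498% of all genes were called in that comparison. The part of the hepatocyte genes in the levels of the members was not tested.

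**Figure D5:**
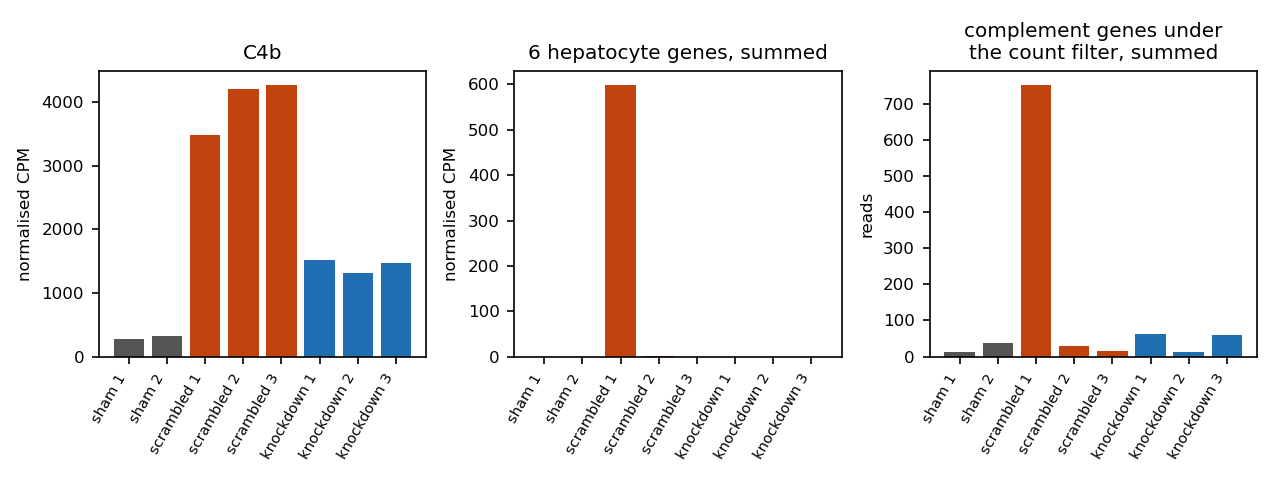
C4b (left, normalised CPM), the summed normalised CPM of 6 hepatocyte genes (middle) and the summed reads of the 27 complement genes under the count filter (right) in each of the 8 libraries; bars are single libraries and axes start at 0. The hepatocyte genes reach 599 CPM in scrambled library 1 alone. C4b stands at 3477, 4208 and 4267 CPM in scrambled libraries 1, 2 and 3, and the part of the hepatocyte genes in it was not tested.

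The genes whose profile over the 8 libraries was most like that of C4b were found by the root mean square distance of mean-centred log2 CPM, among 9989 tested genes with a mean of at least 5 CPM. They were Agt, which encodes angiotensinogen (0.39), Cyp1b1, a cytochrome P450 (0.43), Prkg1, a cGMP-dependent kinase (0.44), Lrg1, a secreted glycoprotein (0.51), and Serpina3n, a secreted protease inhibitor (0.52). Agt stood at 3.04 and 5.30 CPM in sham, 103, 81.2 and 81.4 in scrambled and 25.4, 29.8 and 21.9 in knockdown libraries. As with C4b, its 3 groups did not overlap and the scrambled libraries were highest. Among these 5, Serpina3n had the largest difference between scrambled and knockdown libraries, at 2132, 1422 and 1382 against 365, 254 and 269 CPM, with 76.2 and 76.4 in sham. The 5 were chosen for their likeness to C4b over the same libraries, so no test is given for them.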

How the data were processed

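RNA was sequenced from sorted progenitors of 2 sham, 3 scrambled and 3 knockdown replicates as stranded mRNA libraries with paired reads of 59 bases, made from RNA of integrity 7 or higher, per the labels' protocols. The authors deposited raw counts of reads, 1 whole number per gene symbol and library. Per the submitters' processing notes the build was mm10, bcl2fastq 2.20 was used, and STAR, Bowtie, R 4.2.1 and DESeq2 1.36.0 are also named. For the counting tool, its strand setting and the annotation, the entry is: not given in the sources used here.

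Counts were tested with edgeR 4.0.16 under R 4.3.3: filterByExpr (minimum count 10, total 15), TMM scaling, and a robust quasi-likelihood fit of 3 group means over all 8 libraries, which shares the spread between groups. Tests were two-sided, with Benjamini-Hochberg adjustment over 13646 genes and a threshold of 0.05. Standard errors are the absolute log2 change over the square root of F. Library totals ran from 15647436 to 28340450 counts. The labels call the libraries biological replicates, and the fit estimated from them a spread beyond counting error. Coordinates, exon lengths and transcripts came from GENCODE M21, and promoters and the microRNA from RefSeq (GRCm38.p6).

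The members, the lists by role and the marker lists of cell types were chosen with earlier results of these data known. Named were all members, other complement genes called or among the 4 smallest p in a comparison with a mean of at least 5 CPM, the neighbours next to C4b, C4a, C2 and Cfb, and the 5 profiles nearest to C4b. A few further names (such as Plin4, C1s1 and the liver genes) were picked after their values were seen. A gene that the rule names is not reported here and is not drawn in the heat map. The fit was tested on simulated data. Alternatives were upper-quartile and RLE scaling, DESeq2 1.42.0, limma-voom (limma 3.58.1), no filter, only the 2 groups compared, a replicate block and leaving out libraries.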

Additional observations from a re-analysis of the deposited data

How the results depend on the processing

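Over 16 alternatives the log2 change of C4b ran from 3.62 to 3.82 (scrambled against sham), from -1.57 to -1.40 (knockdown against scrambled) and from 2.14 to 2.35 (knockdown against sham), and its call was kept in 15, 6 and 8 of them. The number of the 9 genes called in these comparisons was 2, 1 and 1. It became 4 and 2 with DESeq2 for the first 2 comparisons, 0 with upper-quartile scaling for the second, 1, 0 and 3 with only the 2 groups compared, and 6, 2 and 4 without both scrambled libraries 1 and 3. Over all genes DESeq2 called 14.3%, 15.9% and 0.209%, the fits of only the 2 groups 0.0303%, 0% and 0.765%, and the fit without both libraries 3.55%, 0.719% and 0.741%, so these counts differ in their background. Of the other complement genes 2, 0 and 0 were called. This became 8, 5 and 1 with DESeq2, 0 (scrambled against sham) and 1 (knockdown against sham) with only the 2 groups compared, and 5, 1 and 1 without both scrambled libraries. Leaving out 1 library at a time gave 0 to 4, 0 to 3 and 0 to 1 members and 0 to 10, 0 to 11 and 0 to 0 others, while up to 51.0%, 54.0% and 0.236% of all genes were called. C4a and C4b summed then ran from 3.61 to 3.82, from -1.57 to -1.42 and from 2.13 to 2.35. Their sum was not called for knockdown against scrambled with upper-quartile scaling (-1.40) or only the 2 groups compared (-1.48). Over all genes, 150 higher and 65 lower calls from sham to scrambled libraries became 3441 and 3467 without scrambled library 2 and 0 and 0 without sham library 1. The fit without both scrambled libraries 1 and 3 leaves a single library in that group, so nothing is read from its counts. Fits with fewer libraries show that the calls depend on which libraries are kept. The cause was not tested.

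Deviations of same-numbered libraries were weakly correlated at most (r = 0.068, -0.0012 and 0.172 between knockdown and scrambled, -0.0216 and -0.0643 between sham and scrambled). No pairing was used in the main fit. With so few libraries in a group, these values cannot exclude a pairing. With the replicate block 1, 0 and 0 members were called, and 0 others from sham to scrambled libraries. Over all genes that fit called 0.117%, 0% and 0%. The summed C4 genes lost their call at -1.47 (knockdown against scrambled) and 2.21 (knockdown against sham), where no gene at all was called.

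Changes of sign concern values that were not called with all 8 libraries, and the value of Cfb without both scrambled libraries 1 and 3 was called in that fit. From scrambled to knockdown libraries they were C3 (-0.06), Cfb (-0.0018) and C7 (0.16) without scrambled library 1, C3 (-0.26), Cfb (-0.32) and Cfd (0.10) without library 3, C3 (-0.68), Cfb (-0.68) and Cfd (0.0823) without both, C7 (0.04) without knockdown library 2, and Ptx3 with limma-voom (0.11), the block (0.0817) or without scrambled library 2 (0.24). From sham to scrambled libraries C3 turned without scrambled library 2 (-0.0518). From sham to knockdown libraries C4a turned without sham library 2 (0.0917), and C1qbp without sham library 1 (0.20) or knockdown library 2 (0.05). Leaving out 1 library at a time, the changes from scrambled to knockdown libraries ran from -0.26 to 0.66 for C3, from -0.32 to 0.61 for Cfb, from -3.996 to 0.10 for Cfd, from -0.34 to 0.16 for C7 and from -0.63 to 0.24 for Ptx3. C3 from sham to scrambled libraries ran from -0.0518 to 0.86, and from sham to knockdown libraries C4a ran from -0.81 to 0.0917 and C1qbp from -0.30 to 0.20. Depth limits C4a and Cfd, with at most 93 reads in a library.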
